A study of Homo sapiens with 4 samples.

Results

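Antisense long non-coding RNAs are named after a gene that lies beside or across from them: ARHGAP5-AS1 is transcribed from the strand opposite to ARHGAP5. Genes whose symbol ends in -AS1 were followed here together with the gene each is named after, called its partner. The genes taken were those with a mean of at least 200 estimated counts over the 4 libraries, without EPB41L4A-AS1 and IGFL2-AS1. This gave 186 genes of the 1285 -AS1 genes with at least 1 count, and of 38928 genes of any kind with at least 1 count. The members were chosen by their mean count, a measure that a gene high in 1 group alone can reach. Of the 186, 17 had a control mean under 200 counts and 25 a deprived mean under 200 counts. Just inside the limit stood TBX2-AS1 (205.5 counts), INTS9-AS1 (208.75) and JDP2-AS1 (209.75), and just outside RPH3AL-AS1 (199), PRKCA-AS1 (197.25) and RBPMS-AS1 (195.5).

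The study compared 2 libraries of control cells of A549, a line from a human lung adenocarcinoma, labelled as untreated and grown in serum-supplemented DMEM, with 2 libraries of cells that were washed and kept in glutamine-free DMEM with serum. Deprivation lasted 24 hours per the protocol, while the sample labels state 24 and 25 hours for replicates 1 and 2. They name no separate cultures, so p-values measure only the spread between these libraries, which may be technical. The labels call the cells alveolar basal epithelial. Levels of marker genes are given in CPM (counts scaled to the library size). The 8 alveolar type II markers summed to 51.8 and 47.9 CPM in controls and 26.94 and 29.98 CPM under deprivation, of which ABCA3 made up 47.2, 45.4, 23.9 and 26.3 CPM, while SFTPA1 was at 0 in all libraries. The 3 basal markers summed to 7.34 and 6.24 CPM in controls, nearly all of it TP63 (6.19 and 6.24 CPM), and to 0.412 and 0.703 CPM under deprivation. The summed level of 5 epithelial markers, KRT8, KRT18, KRT19, EPCAM and CDH1, was 8681 and 8448 CPM in controls, against 1739 and 1590 CPM under deprivation. HBB, a blood marker, reached 13.3 CPM in control replicate 1 and at most 0.250 CPM in the others. The part of these markers in the results below was not tested. Libraries held between 101496318 and 123414592 counts. In such bulk samples, fewer cells that express a gene and less RNA per cell cannot be told apart.

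Antisense transcripts can arise when a promoter is used in both directions, or when a second gene starts within or beyond its neighbour and runs back across it. Some are known to act on the neighbour in cis, by transcription through it or by pairing with its RNA, and others act elsewhere in the cell or have no known function. Many are low in abundance, spliced and polyadenylated, so that poly-A selected libraries capture them.

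All 186 genes lay on the strand opposite to their partner in the GENCODE 29 annotation of GRCh38. That annotation types 138 of them as antisense, 25 as processed transcripts and 17 as long intergenic RNAs. It types 2, KRT10-AS1 and KCNJ5-AS1, as protein-coding, and SVIL-AS1, TP73-AS1 and EMC3-AS1 as transcribed pseudogenes. In 73 pairs the start sites of the most counted transcripts were fewer than 1000 bases apart, at a median of 237 bases, and these pairs are called head to head. In 91 other pairs exons overlapped, in 20 the genes overlapped only through introns, and in 2 they lay apart. Across all arrangements, 148 antisense genes shared at least 1 exonic base with the partner, at a median of 8.47% of their own exonic bases, and 31 shared over 25%. The kit's protocol, as given in the labels, does not describe marking of the strand, so reads from shared exonic bases cannot be assigned to 1 of the 2 genes with certainty. Only 26 members shared no exonic base with any annotated gene on the other strand. In 23 members exonic bases were also shared with a gene on the same strand.

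RefSeq (GRCh38.p14) listed a promoter window, from 250 bases before to 50 bases after the start, for 133 of the antisense genes and 151 of the partners. The windows of the antisense genes had a median GC content of 64.3% and a median of 23 CpG dinucleotides, those of the partners 65.0% and 25, and those of all 27305 windows 58.3% and 14. Of 51 head to head pairs with both windows listed, 18 had overlapping windows. The following stretches belong to the head to head pairs with the largest changes described below, and they are shown because both genes of each pair start close to each other. They leave out annotated untranslated bases and read 5′ to 3′ on the strand of the named gene, and capitals mark the CCAAT box.

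STARD4-AS1, chr5:111511976-111512275, plus strand: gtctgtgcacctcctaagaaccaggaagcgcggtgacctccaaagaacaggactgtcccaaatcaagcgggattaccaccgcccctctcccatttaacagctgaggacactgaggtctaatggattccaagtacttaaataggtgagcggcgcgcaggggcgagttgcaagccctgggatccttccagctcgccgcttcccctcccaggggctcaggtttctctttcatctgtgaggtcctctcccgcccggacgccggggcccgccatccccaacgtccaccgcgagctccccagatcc
STARD4, chr5:111512591-111512785, minus strand: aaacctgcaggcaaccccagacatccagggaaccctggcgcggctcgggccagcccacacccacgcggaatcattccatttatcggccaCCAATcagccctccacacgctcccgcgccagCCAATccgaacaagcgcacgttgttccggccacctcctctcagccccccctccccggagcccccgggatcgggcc
SPACA6-AS1, chr19:51693407-51693495, minus strand: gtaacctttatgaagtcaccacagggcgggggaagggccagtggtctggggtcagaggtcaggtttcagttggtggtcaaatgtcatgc
ZNF674-AS1, chrX:46545442-46545539, plus strand: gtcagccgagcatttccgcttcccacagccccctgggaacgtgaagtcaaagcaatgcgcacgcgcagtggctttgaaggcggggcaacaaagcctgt
TMPO-AS1, chr12:98516177-98516476, minus strand: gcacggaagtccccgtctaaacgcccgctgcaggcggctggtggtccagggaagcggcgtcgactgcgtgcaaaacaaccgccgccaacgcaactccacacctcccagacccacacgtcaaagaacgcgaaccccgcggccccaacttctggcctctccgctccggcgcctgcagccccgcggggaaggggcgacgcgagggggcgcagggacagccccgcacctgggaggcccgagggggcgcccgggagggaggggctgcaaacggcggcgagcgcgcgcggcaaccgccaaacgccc

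The RefSeq starts of STARD4-AS1 and STARD4 were 309 bases apart, those of SPACA6-AS1 and SPACA6 126, and those of TMPO-AS1 and TMPO 653, each with the antisense start inside the partner, so that the transcribed parts cross. The starts of ZNF674-AS1 and ZNF674 lay 69 bases apart and pointed away from each other. The windows were searched on both strands for CCAAT (the CCAAT box), for TATAAA (the TATA box), for CACGTG (an E-box), for CCGGAAG (the core of ETS sites), for TCACCCCA (the core of a sterol element), for TGATGNAA (the core of an amino acid response element) and for TTTGGCGC (an E2F core); none of these motifs contains another. Of the motifs, CCAAT alone was found in the windows of these 4 pairs, at 161 and 130 bases before the start of STARD4 and at 47 and 15 bases before that of TMPO. CCAAT occurred in 35.7% of all RefSeq windows, in 33.1% of the partners' windows and in 24.8% of the antisense genes' windows.

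The antisense genes moved in both directions after glutamine deprivation. Of 186, 54 were higher and 46 lower (edgeR adjusted p under 0.05 over all 24527 genes tested), which is 29.03% and 24.7%. Over all genes tested, 25.2% were higher and 24.4% lower, and over the 13357 genes that reach the same mean of 200 counts 39.9% were higher and 30.6% lower. The antisense genes' shares were near those of all genes tested and below those of the genes that reach the same mean count. Of the 810 long non-coding genes at that count, 220 were higher and 222 lower. The median log2 fold change of the 186 antisense genes was -0.03, against -0.06 for all genes and 0.11 for all genes at that count. A change of at least 2-fold was seen in 30 of the higher and 33 of the lower antisense genes. Over all 24527 genes tested these numbers were 3030 and 3754, and over the 13357 genes with a mean of at least 200 counts 2223 and 1940. In 137 of 186 (73.7%) both deprived libraries lay on the same side of both controls, which was so for 76.5% of all genes tested. Among the 144 members with at least 200 counts in both groups, 42 were higher and 28 lower. The shares of all genes under that condition are not given here. Of the 17 members with a control mean under 200 counts, 12 were higher. Of the 25 with a deprived mean under 200 counts, 18 were lower. These calls can follow in part from the choice by mean count. SERTAD4-AS1, POLH-AS1, ZNF674-AS1, SCAMP1-AS1, TNFRSF10A-AS1 and CSRP1-AS1, described below, are among the members with a control mean under 200 counts. STARD4-AS1, SPACA6-AS1, PAX8-AS1, PDE7B-AS1, TMPO-AS1, RDH10-AS1 and ZNF710-AS1 are among those with a deprived mean under 200 counts. With scaling by library size alone, which moves the median of all genes to -0.40, 28 antisense genes were higher and 65 lower, so that the higher share of the calls went from 54.0% to 30.1%.

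**Figure D1:**
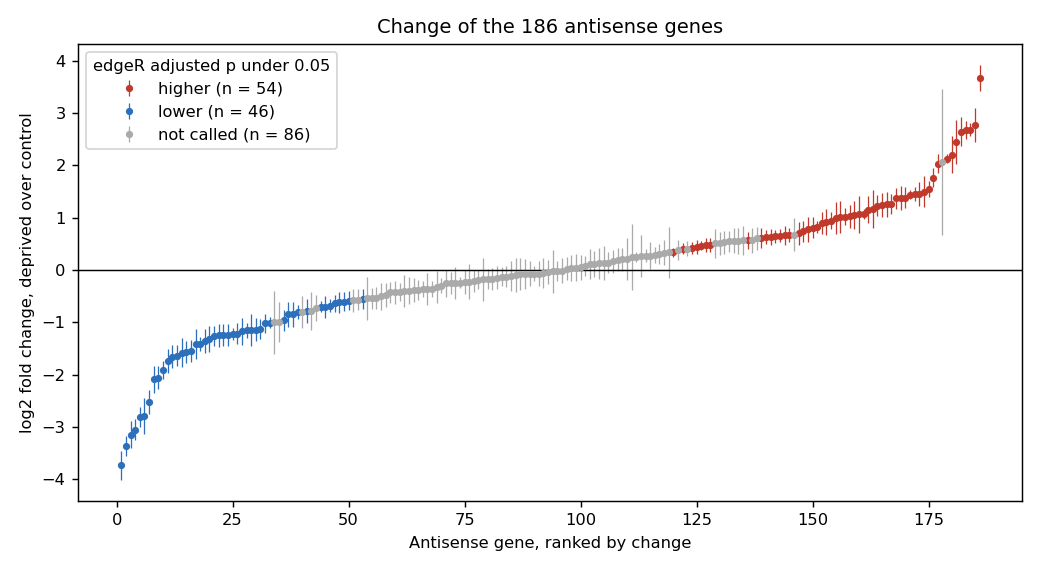
The log2 fold change (deprived over control) of each of the 186 antisense genes is plotted in rank order, with bars of 1 SE from edgeR and colours for the call. Changes ran from -3.73 to 3.67, and the point with the widest bar is RASAL2-AS1, which had 0 counts in control replicate 1.

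The largest rise was that of SERTAD4-AS1 (ENSG00000203706, chr1:210231456-210234047), named after a gene for a SERTA domain protein. It had 0.324 and 0.354 CPM in the controls and 4.77 and 3.89 CPM in the deprived ones, a log2 fold change of 3.67 ± 0.25 (SE; edgeR adjusted p = 9.53e-05). The groups lay far apart, with 37 and 39 counts against 498 and 422. SERTAD4 itself went from 1.14 and 1.14 CPM to 10.8 and 8.14 CPM, a log2 fold change of 3.05 ± 0.21. The antisense gene thus rose with its partner, and 17.3% of its exonic bases are shared with it. SERTAD4 transcripts that do not overlap the other strand held only 0, 5, 8 and 8 counts (controls first). The 2 rises are therefore hard to tell apart.

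SLFNL1-AS1, across from the schlafen-like gene SLFNL1, had 3.67 and 2.28 CPM in the controls and 15.3 and 25.3 CPM under deprivation (log2 fold change 2.77 ± 0.33). SLFNL1 rose by nearly the same amount, 2.67 ± 0.14, and 27.0% of the antisense gene's exonic bases are shared with it. Every transcript of either gene overlaps an exon of the other, so these rises cannot be set apart. ADIRF-AS1 had 3.94 and 3.45 CPM in the controls and 23.9 and 23.6 CPM in the deprived libraries (2.68 ± 0.12). Its partner ADIRF, the gene of the adipogenesis regulatory factor, had too few counts to be tested. These 2 antisense genes were named under a rule that required groups without overlap.

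POLH-AS1 lies in the introns of POLH, which encodes the translesion DNA polymerase eta, and shares no exonic base with it. It had 1.22 and 1.39 CPM in the controls and 8.03 and 8.62 CPM in the deprived libraries (log2 fold change 2.68 ± 0.18; edgeR adjusted p = 8.86e-05). POLH rose by less, 0.60 ± 0.08, from 44.1 and 40.7 CPM to 61.5 and 67.3 CPM, and its call was lost with library size scaling (0.27; edgeR adjusted p = 0.0736). The antisense to partner ratio, as log2 of CPM plus 0.5 on both sides, rose by 1.75 ± 0.20 (limma adjusted p = 0.000301 over 944 pairs). In this pair the antisense RNA changed more than its partner.

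ZNF674-AS1, the divergent gene beside the zinc finger gene ZNF674, had 1.24 and 1.08 CPM in the controls and 5.70 and 8.84 CPM under deprivation (2.64 ± 0.27). ZNF674 rose from 4.75 and 5.28 CPM to 16.7 and 16.9 CPM (1.74 ± 0.12). The ratio changed by 0.59 ± 0.25 and did not pass the test (limma adjusted p = 0.0795), but did without deprived replicate 1 (0.87; limma adjusted p = 0.0362). These neighbours, with starts 69 bases apart, both rose. ZNF407-AS1 (1.28, 2.63, 8.13 and 9.90 CPM, controls first) rose by 2.21 ± 0.35. The zinc finger gene ZNF407, which it overlaps without sharing an exonic base, rose by 0.45 ± 0.08. With library size scaling the change of ZNF407 was 0.11 and no longer called.

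ZFPM2-AS1 rose with little spread between replicates. It had 8.98 and 8.40 CPM in the controls and 38.3 and 37.5 CPM in the deprived libraries (2.12 ± 0.09; edgeR adjusted p = 2.09e-05), and ZFPM2, a zinc finger cofactor of GATA factors, rose by 2.36 ± 0.24. TNFRSF10A-AS1 went from 1.58 and 1.53 CPM to 5.92 and 6.84 CPM (2.03 ± 0.19). Its partner TNFRSF10A, a death receptor for TRAIL, rose by 1.81 ± 0.07. The antisense gene shares 35.2% of its exonic bases with that receptor gene, and with only the TNFRSF10A transcripts that do not overlap the other strand the receptor's change was 0.64 (edgeR adjusted p = 0.566). CSRP1-AS1 rose by 1.77 ± 0.19 from 1.84 and 1.62 CPM to 5.65 and 6.11 CPM, while CSRP1, which encodes a LIM domain protein, rose more, by 2.70 ± 0.11, from 327 and 300 CPM to 2147 and 1926 CPM.

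**Figure D2:**
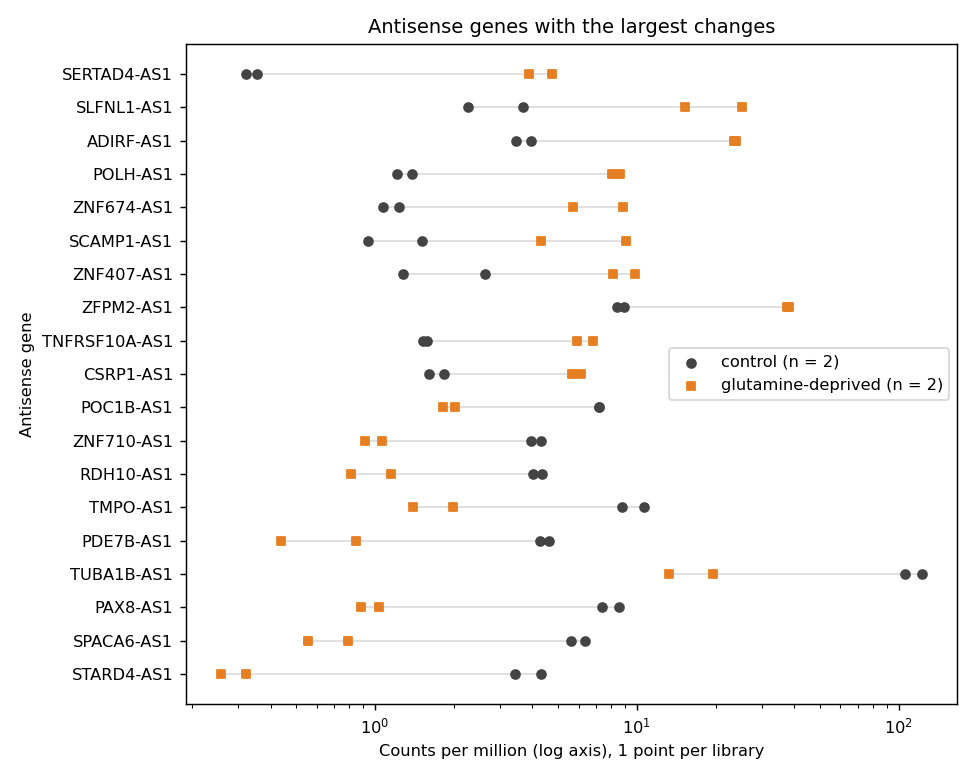
CPM (log axis) of the 10 antisense genes with the largest called increases and of 9 with the largest called decreases, with 1 point per library. The rule that chose these genes required both deprived libraries (squares) to lie on the same side of both control libraries (circles).

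The largest fall was that of STARD4-AS1 (ENSG00000246859, chr5:111512226-111739726), whose start lies inside STARD4, the gene of a cytosolic sterol carrier. It had 4.33 and 3.43 CPM in the controls and 0.259 and 0.323 CPM in the deprived ones (log2 fold change -3.73 ± 0.28; edgeR adjusted p = 0.00013). STARD4 fell by less, from 70.0 and 72.5 CPM to 37.4 and 39.5 CPM (-0.89 ± 0.07). The ratio change was -1.46 ± 0.21 (limma adjusted p = 0.000809). With a pseudocount of 5 CPM, which exceeds all 4 values of the antisense gene, the sign of this ratio turned, so the ratio holds only where the pseudocount is small against the gene.

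PAX8-AS1 fell from 8.55 and 7.40 CPM to 1.03 and 0.885 CPM (-3.05 ± 0.20). PAX8, a paired-box factor of thyroid and kidney, fell from 3.04 and 3.22 CPM to 1.03 and 0.691 CPM (-1.86 ± 0.28). The ratio change was -1.13 ± 0.21 (limma adjusted p = 0.00291), and it no longer passed with a pseudocount of 0.05 CPM (-1.17; limma adjusted p = 0.0728).

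SPACA6-AS1 starts inside SPACA6, which encodes a sperm membrane protein needed for fertilisation. It had 6.34 and 5.63 CPM in the controls and 0.555 and 0.793 CPM in the deprived libraries (-3.15 ± 0.25). SPACA6 fell from 5.84 and 5.70 CPM to 1.23 and 1.56 CPM (-2.05 ± 0.21). The authors' deposited table lists 1 transcript of SPACA6-AS1 with 1.21 FPKM in the control group and 0.114 FPKM in the deprived group, a log2 fold change of -3.40.

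TMPO-AS1 and TUBA1B-AS1 lie opposite genes for structural proteins of the nucleus and the cytoskeleton. TMPO-AS1 had 8.80 and 10.7 CPM in the controls and 1.98 and 1.40 CPM in the deprived libraries (-2.53 ± 0.23), and TMPO, which encodes the lamina-associated polypeptide LAP2, fell from 537 and 529 CPM to 217 and 207 CPM (-1.33 ± 0.07). TUBA1B-AS1 was the second most counted of the 186, with 123.3 and 105.6 CPM in the controls and 19.5 and 13.3 CPM under deprivation (-2.80 ± 0.20). The alpha tubulin gene TUBA1B fell from 1137 and 1323 CPM to 406 and 341 CPM (-1.72 ± 0.13). Since 80.2% of the exonic bases of TUBA1B-AS1 are shared with TUBA1B, its counts cannot be told apart from reads of the tubulin gene.

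Of the remaining large falls, PDE7B-AS1, opposite a cAMP phosphodiesterase gene, had 4.27 and 4.64 CPM in the controls and 0.440 and 0.848 CPM under deprivation (-2.79 ± 0.35), and PDE7B fell with it (-1.75 ± 0.08). RDH10-AS1 (-2.09 ± 0.25) fell beside RDH10, a retinol dehydrogenase gene (-1.86 ± 0.07). ZNF710-AS1 (-2.05 ± 0.22) fell beside the zinc finger gene ZNF710 (-0.58 ± 0.11). POC1B-AS1 had 7.19 and 7.19 CPM in the controls and 1.82 and 2.03 CPM in the deprived libraries (-1.90 ± 0.17), whereas the centriole gene POC1B changed by -0.33 ± 0.07. Each of these 4 partners was called lower by edgeR. Every fall described above had a partner that was also lower. STARD4 has no transcript that is free of exonic overlap with its antisense gene. Such transcripts of PAX8, PDE7B, TUBA1B and ZNF710 held at most 22 counts in any library. Few or no reads thus set the falls of these partners apart from shared exonic bases. In TMPO, RDH10, SPACA6 and POC1B such transcripts held at least 96 counts in every library.

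The most counted antisense gene was OIP5-AS1, known as a binding partner of the microRNA miR-7 and named after a gene for a centromere protein. It had 305 and 271 CPM in the controls and 164 and 190 CPM in the deprived ones (log2 fold change -0.70 ± 0.10; edgeR adjusted p = 0.00214). OIP5 fell by a like amount, -0.60 ± 0.10, at a level of 14.0 to 22.7 CPM, a call lost with only its transcripts that do not overlap the other strand (-0.63; edgeR adjusted p = 0.508). The transcript OIP5-AS1-201 held 95.5% to 98.2% of the gene's counts in each library. The 186 antisense genes together took 0.170% and 0.154% of gene counts in the controls and 0.113% and 0.130% in the deprived libraries. Without OIP5-AS1 these shares were 0.135%, 0.124%, 0.0991% and 0.112%.

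Other highly counted genes moved in both directions. GABPB1-AS1, beside the gene of a subunit of the ETS factor GABP, had 47.6 and 39.5 CPM in the controls and 27.3 and 37.9 CPM under deprivation (-0.42 ± 0.17) and did not pass the test with edgeR. It passed with DESeq2 (-0.40; adjusted p = 0.0364), with library size scaling (-0.75; edgeR adjusted p = 0.0187) and without deprived replicate 2 (-0.66; edgeR adjusted p = 0.00664). GABPB1 rose by 1.64 ± 0.08, or by 1.04 with only its transcripts that do not overlap the other strand, where the call was lost (edgeR adjusted p = 0.111). HSD17B1-AS1 rose from 29.1 and 27.6 CPM to 50.1 and 39.1 CPM (0.65 ± 0.13), and HSD17B1, an oestradiol-forming enzyme gene with which it shares 85.2% of its exonic bases, was at 1.36, 1.82, 2.29 and 1.70 CPM. SVIL-AS1 rose from 27.9 and 31.0 CPM to 38.4 and 36.4 CPM (0.34 ± 0.09), and ZNF337-AS1 from 21.9 and 20.2 CPM to 33.5 and 41.1 CPM (0.82 ± 0.12). The calls of SVIL-AS1 and HSD17B1-AS1 were lost with library size scaling, where their changes were 0.01 and 0.31. The call of SVIL-AS1 was also lost without control replicate 1 and without deprived replicate 1.

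Among antisense genes studied often in cancer cells, FGD5-AS1 fell from 29.7 and 34.2 CPM to 16.3 and 20.4 CPM (-0.80 ± 0.13; edgeR adjusted p = 0.00374). THAP9-AS1, beside a gene derived from a transposase, rose from 14.3 and 13.5 CPM to 39.7 and 35.9 CPM (1.44 ± 0.09), as did THAP9 (1.78 ± 0.11). THAP9 transcripts that do not overlap the other strand held only 4, 4, 11 and 25 counts (controls first). ZEB1-AS1 had 4.02 and 6.37 CPM in the controls and 4.05 and 5.91 CPM in the deprived libraries (-0.06 ± 0.29), with overlapping groups, whereas ZEB1, a transcription factor of the epithelial to mesenchymal transition, rose by 1.11 ± 0.08. With only its transcripts that do not overlap the other strand, ZEB1 was at 0.23 and not called (edgeR adjusted p = 0.462). MCM3AP-AS1 was at -0.36 ± 0.31 and PSMA3-AS1, named after a proteasome subunit gene, at 0.25 ± 0.09, and neither passed the test with edgeR. MCM3AP-AS1 passed without deprived replicate 2 (-0.86; edgeR adjusted p = 0.0218), and PSMA3-AS1 with RLE scaling (0.28; edgeR adjusted p = 0.0427). The proteasome gene PSMA3 fell, with a log2 fold change of -0.38 ± 0.08.

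Of 181 partners tested, 86 were higher (47.5%) and 47 lower (26.0%), with a median log2 fold change of 0.44. Of all genes with a mean of at least 200 counts 39.9% were higher and 30.6% lower, and of all protein-coding genes tested 34.3% and 29.8%. With library size scaling 75 partners were higher and 61 lower. In the 73 head to head pairs, 23 antisense genes were higher and 21 lower, against 38 and 20 of their partners. Where exons overlapped, 25 of 91 antisense genes were higher and 20 lower, against 39 and 22 of 87 partners tested. Where only introns overlapped, 5 of 20 antisense genes were higher and 4 lower, against 9 and 3 of 19 partners tested. No test between the arrangements was made.

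Antisense gene and partner changed in the same direction in 63 of 181 pairs (34.8%), 36 both higher and 27 both lower. Both genes were called in the same direction in 17.2% of all 944 antisense-named pairs tested, which include pairs with far fewer counts. In 16 pairs only the antisense gene was called, in 51 only the partner, and in 32 neither. Across the 181 pairs the 2 log2 fold changes had a Pearson correlation of 0.50 and a Spearman correlation of 0.43, a description over pairs that share the same 4 libraries and, in part, the same exonic bases. In the 37 pairs without a shared exonic base, these were 0.48 and 0.40. In the head to head pairs they were 0.42 and 0.34, and in the pairs with overlapping exons 0.57 and 0.54.

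**Figure D3:**
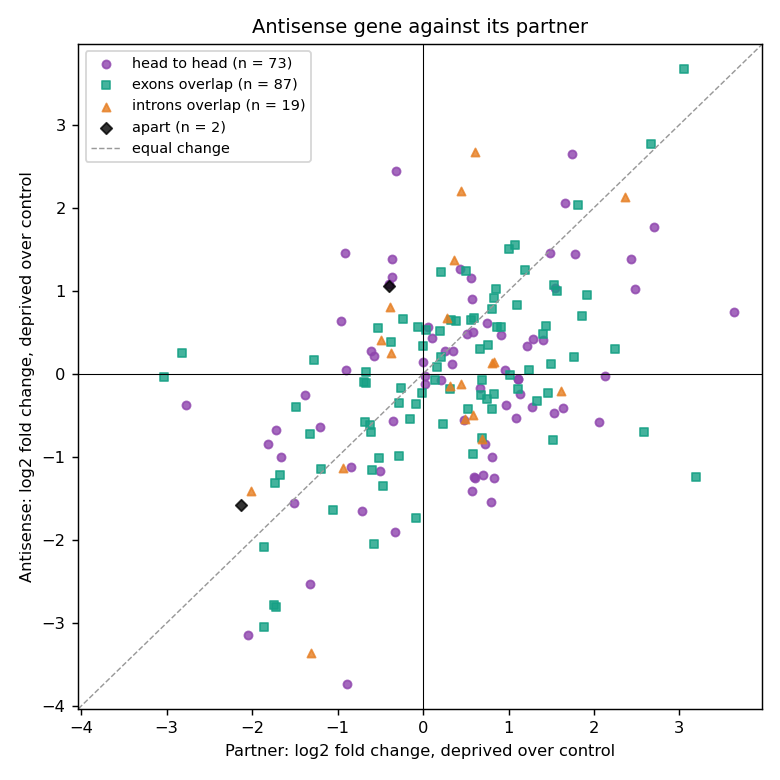
The log2 fold change of each antisense gene is plotted against that of its partner for 181 pairs, with symbols for the 4 arrangements and a dashed line of equal change. Points spread from the lower left to the upper right (Pearson correlation 0.50), with a group of head to head pairs in which the antisense gene is below 0 and the partner above it.

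In 19 pairs (10.5%) the genes were called in opposite directions, against 4.87% of all 944 antisense-named pairs. The 944 include pairs with far fewer counts, in which both genes are called less often. Set against pairs called in the same direction, these were 19 to 63 here and 46 to 162 over the 944. In 13 of the 19 the antisense gene fell and the partner rose, and in 6 the antisense gene rose and the partner fell. Head to head pairs made up 9 of the 13 and 5 of the 6. The pairs named in the next paragraphs were taken after their values were seen. With a library left out, 11 pairs were opposite without control replicate 1, 11 without control replicate 2, 15 without deprived replicate 1 and 16 without deprived replicate 2, and 8 pairs kept their opposite calls in each of these 4 fits. With only the transcripts that do not overlap the other strand, 78 pairs could be tested and 5 were opposite.

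The 8 pairs were those of ARHGAP5, PSMG3, SGMS1, RAB35, GAS5, KMT2E, NFYC and SAP30L, and 7 of them showed a falling antisense gene and a rising partner. ARHGAP5-AS1 (chr14:32074946-32076793) had 6.31 and 8.54 CPM in the controls and 2.67 and 2.41 CPM under deprivation (-1.55 ± 0.21), while ARHGAP5, which encodes a GTPase activating protein, rose from 290 and 321 CPM to 536 and 527 CPM (0.80 ± 0.08). The ratio change was -2.13 ± 0.21 (limma adjusted p = 0.000116). PSMG3-AS1 went from 5.08 and 6.39 CPM to 1.63 and 2.66 CPM (-1.42 ± 0.29), beside a rise of the proteasome assembly gene PSMG3 (0.57 ± 0.09). SGMS1-AS1 went from 8.29 and 6.27 CPM to 3.12 and 2.98 CPM (-1.26 ± 0.20), beside a rise of the sphingomyelin synthase gene SGMS1 (0.61 ± 0.07). In all 3 of these loci the groups did not overlap for either gene. The choice of these pairs by their calls makes this likely, and 76.5% of all genes tested were separated in this way.

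RAB35-AS1 (-1.25 ± 0.22) lay beside the endocytic GTPase gene RAB35 (0.83 ± 0.08), KMT2E-AS1 (-1.24 ± 0.21) beside KMT2E (0.59 ± 0.07) and NFYC-AS1 (-1.22 ± 0.20) beside NFYC (0.70 ± 0.08), which encodes a subunit of the factor that binds the CCAAT box. LAMTOR5-AS1 fell from 5.30 and 4.67 CPM to 2.28 and 2.85 CPM (-0.96 ± 0.20) where LAMTOR5, a subunit of the lysosomal Ragulator complex that anchors nutrient sensing by mTORC1, rose from 38.4 and 41.3 CPM to 60.7 and 59.0 CPM (0.59 ± 0.07). The opposite calls of LAMTOR5 and its antisense gene held in 3 of the 4 fits with a library left out. In these 4 loci the antisense genes were at 3.39 to 5.30 CPM in the controls and at 1.45 to 2.85 CPM under deprivation. Their groups did not overlap, which the choice of the pairs by their calls makes likely.

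The widest gap was at GAS5, a non-coding host gene of small nucleolar RNAs whose transcripts accumulate when growth slows. GAS5-AS1 (chr1:173863248-173863941) fell from 5.31 and 4.72 CPM to 1.90 and 2.34 CPM (-1.24 ± 0.20; edgeR adjusted p = 0.0034). GAS5 rose from 48.4 and 46.6 CPM to 471 and 395 CPM (3.19 ± 0.11), and the ratio change was -4.20 ± 0.23 (limma adjusted p = 1.64e-05). With only the GAS5 transcripts that do not overlap the other strand, the rise of GAS5 was 0.46 (edgeR adjusted p = 0.166). MAP3K14-AS1 was at -0.70 ± 0.21, while MAP3K14, which encodes the NF-kB inducing kinase NIK, rose from 34.4 and 31.8 CPM to 205 and 193 CPM (2.59 ± 0.08). The call of MAP3K14-AS1 was lost without control replicate 1 (-0.48; edgeR adjusted p = 0.188) and without deprived replicate 2 (-0.57; edgeR adjusted p = 0.107), and with no filter, and MAP3K14 lost its own with non-overlapping transcripts only (1.09; edgeR adjusted p = 0.238). RAB33B-AS1 (-0.59 ± 0.18) lay beside the Golgi GTPase gene RAB33B (2.06 ± 0.18) and lost its call when any of the 4 libraries was left out, with DESeq2, RLE scaling or no filter, and with the replicate block (edgeR adjusted p = 0.0774).

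Among the antisense genes that rose beside a falling partner, SAP30L-AS1 had 6.09 and 4.76 CPM in the controls and 12.2 and 17.6 CPM under deprivation (1.46 ± 0.22; edgeR adjusted p = 0.00255). SAP30L, a subunit of Sin3 corepressor complexes, fell from 46.0 and 41.7 CPM to 23.2 and 23.2 CPM (-0.92 ± 0.08). The pair shares no exonic base, and the ratio change was 2.28 ± 0.23 (limma adjusted p = 0.00015). SCAMP1-AS1 had 0.945 and 1.52 CPM in the controls and 9.12 and 4.30 CPM under deprivation (2.45 ± 0.43), and SCAMP1, which encodes a secretory carrier membrane protein, was at 104 and 124 CPM in the controls and at 89.5 and 93.5 CPM under deprivation (-0.32 ± 0.10). The call of SCAMP1 was lost without control replicate 2 (-0.20; edgeR adjusted p = 0.184), without deprived replicate 1 (-0.28; edgeR adjusted p = 0.116) and without deprived replicate 2 (-0.34; edgeR adjusted p = 0.0680), and also with RLE scaling and with no filter. FBXL19-AS1 rose by 1.38 ± 0.20 beside the F-box gene FBXL19 (-0.37 ± 0.09), which lost its call without either control library, without deprived replicate 2 and with no filter. GPAT4-AS1 rose by 1.16 ± 0.36 beside GPAT4 (-0.36 ± 0.08), a glycerol phosphate acyltransferase gene, and lost its call without control replicate 1 (0.75; edgeR adjusted p = 0.0773) and without deprived replicate 2 (0.82; edgeR adjusted p = 0.106), and also with DESeq2, library size scaling and no filter on low counts.

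**Figure D4:**
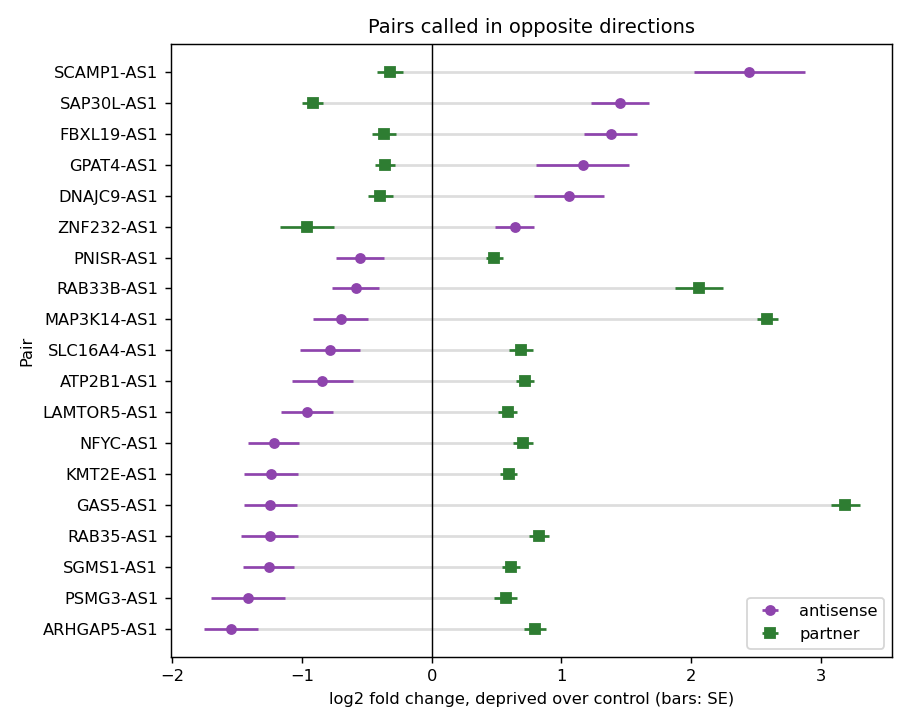
The log2 fold changes (deprived over control, bars of 1 SE from edgeR) of antisense gene and partner are shown for the 19 pairs called in opposite directions. In 13 pairs the antisense gene (circles) is below 0 and the partner (squares) above it, with the widest gap at GAS5, and in 6 the order is turned.

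Over all 181 pairs the ratio of antisense to partner was higher in 30 (16.6%) and lower in 67 (37.0%), with a median change of -0.27 on the log2 scale. Of all 944 antisense-named pairs, 20.3% were higher and 28.0% lower, with a median of -0.10. The ratio understates the change of genes near the pseudocount of 0.5 CPM: SERTAD4-AS1 and SERTAD4 changed by 3.67 and 3.05, and their ratio by -0.01. With a pseudocount of 0.05 CPM, added after the data were seen, 11 ratios were higher and 26 lower. In the head to head pairs 15 ratios were higher and 34 lower, and in the pairs with overlapping exons 8 were higher and 28 lower.

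Some of the largest ratio changes came from a partner that moved while the antisense gene did not pass the test. CBR3-AS1 was at 1.75, 2.15, 1.94 and 1.86 CPM, and the carbonyl reductase gene CBR3 fell from 4.72 and 6.26 CPM to 0.287 and 1.05 CPM (-3.03 ± 0.58). ZNF529-AS1 was at 2.70, 2.83, 2.63 and 2.82 CPM, and ZNF529 rose from 11.8 and 12.6 CPM to 49.3 and 57.0 CPM (2.12 ± 0.10). The groups of each of these antisense genes overlapped. Transcripts of CBR3-AS1 that do not overlap the other strand held only 8, 7, 8 and 16 counts (controls first), and CBR3 has no such transcript.

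FRMD6-AS1 rose from 2.004 and 1.779 CPM to 3.30 and 3.01 CPM (0.74 ± 0.21), a call lost with library size scaling (0.40) and without either control library or deprived replicate 1. FRMD6, a FERM domain gene upstream of the Hippo pathway, rose from 41.8 and 44.5 CPM to 559 and 518 CPM (3.64 ± 0.09), and the ratio change was -2.96 ± 0.20 (limma adjusted p = 2.23e-05).

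Counts per kilobase of all annotated exonic bases of a gene allow a rough comparison of levels between genes. The antisense gene stood above its partner in all 4 libraries in 35 of 186 pairs and in none in 126. OIP5-AS1 had 2748, 2358, 1351 and 1626 counts per kilobase (controls first) and OIP5 1981, 2024, 1273 and 1227. ZFPM2-AS1 had 384.7, 346.8, 1498 and 1525 counts per kilobase against 54.9, 33.2, 202.2 and 226.6 for ZFPM2. FGD5-AS1 had 660.5, 734.4, 331.5 and 430.7 counts per kilobase, while FGD5, an exchange factor gene of endothelial cells, was at 1.98 or less. In these 3 loci the gene named as antisense had more counts per kilobase than its partner in every library. For OIP5, transcripts that do not overlap the other strand held only 18, 10, 7 and 10 counts (controls first).

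At the level of single transcripts, 555 of the 1273 transcripts of these genes could be tested. None was called higher and 1 lower by edgeR, while 139 had an unadjusted p under 0.05. Over all 88815 transcripts tested, 0.719% were called higher and 0.314% lower. The transcript called was AC011603.2-201 of TUBA1B-AS1, with 5627 and 5168 counts in the controls and 722 and 580 in the deprived libraries. The same transcript led in all 4 libraries in 145 genes, of which 49 have a single transcript. In 6 genes the leading transcript differed between the groups and was the same within each. In TRAF3IP2-AS1, TRAF3IP2-AS1-209 led in the controls with 29.5% and 32.1% of the counts, and TRAF3IP2-AS1-202 led under deprivation with 38.0% and 43.8%. ZFPM2-AS1, ZNF451-AS1, NHSL1-AS1, MRPL20-AS1 and NINJ2-AS1 were the others, and none of their transcripts passed the edgeR test.

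The authors' deposited table of changed long non-coding transcripts holds 219 entries, of which 19 belong to 14 of these antisense genes, 10 higher and 9 lower. All 19 had the sign of the gene's change in the edgeR fit, which uses the same libraries. In the authors' deposited table ADIRF-AS1-203 had 0.493 FPKM in the control and 3.77 FPKM in the deprived group (log2 fold change 2.94), and FOXD2-AS1-201 had 1.49 and 0.473 FPKM (-1.66). In the edgeR fit the gene changes of ADIRF-AS1 and FOXD2-AS1 were 2.68 and -1.58.

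Further RNAs are named for their place beside a gene. Of 721 -AS1 genes tested with a mean under 200 counts, 50 were higher and 113 lower, with a median log2 fold change of -0.36. Of 358 divergent transcripts with names ending in -DT, 26 were higher and 89 lower (median -0.53). Of 76 genes numbered -AS2 or above, 8 were higher and 7 lower, of 55 intronic transcripts (-IT) 3 and 6, and of 9 overlapping transcripts (-OT) 2 and 2. No test between these lists was made.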

How the data were processed

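RNA from 4 A549 libraries, 2 control and 2 glutamine-deprived, was selected on poly-T beads, per the labels' protocols. The submitters' processing notes name HISAT2 2.0.5, featureCounts 1.5.0-p3, DESeq2 1.20.0 and hg38, with no role for each. The authors deposited whole-number counts per transcript, treated here as estimated counts because the tool that shared reads out among overlapping transcripts is not given in the sources used here. For 219 transcripts a table deposited by the authors holds a group FPKM, the log2 of its fold change, p-values with q-values, and the score of their test.

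GENCODE 29 matched 205306 of 229420 transcripts, which held 98.0% to 98.2% of each library's counts, so some gene sums are partial. Counts were summed to genes, filtered with filterByExpr, scaled with TMM (factors 1.15, 1.10, 0.862 and 0.919) and tested with edgeR 4.0.16 (quasi-likelihood, two-sided, Benjamini-Hochberg over 24527 genes, adjusted p under 0.05; common biological coefficient of variation 0.210) in R 4.3.3. CPM use TMM-scaled library sizes, except for marker genes and ratios, where library size alone is used. SE is the log2 fold change over the root of the test's F. Ratios, as log2 of antisense CPM plus 0.5 over partner CPM plus 0.5, were tested with limma 3.58.1 over all 944 pairs, and transcripts with edgeR over 88815. Scripts were tested on simulated data.

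Members and lists were chosen with earlier results of these data known. Genes named were the 10 largest called rises and falls without overlap between groups, the 6 highest mean counts, a list of often studied antisense genes, the 8 largest ratio changes in each direction, their partners and, added after their values were seen, other pairs called in opposite directions. Some genes that this rule takes are not reported here. Alternatives were DESeq2 1.42.0, limma-voom, RLE, upper-quartile and library size scaling, other filters, pseudocounts and count limits, transcripts without overlap, a replicate block and each library left out.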

Additional observations from a re-analysis of the deposited data

How the results depend on the processing

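With each library left out in turn, 38 to 51 antisense genes were higher and 37 to 51 lower, 84 to 88 partners higher and 40 to 50 lower, 26 to 28 ratios higher and 58 to 66 lower, 11 to 16 pairs opposite, and 0 transcripts lower. A fit with 1 library in a group assumes that it varies like the other group. Scaling by library size alone gave 28 higher antisense genes. With no filter on low counts 11 pairs were opposite. With only transcripts that do not overlap the other strand, 22 antisense genes were higher and 17 lower of 100, 53 partners higher of 146, 15 ratios higher and 23 lower of 80, and 5 pairs opposite of 78; fewer genes could be tested there. A count limit of 100 gave 74 lower antisense genes of 309, and a limit of 500 gave 29 higher and 16 lower of 69. The 26 members with no exonic base shared on the other strand held 8 higher and 7 lower, a choice made after seeing the data. With a pseudocount of 0.05 CPM, 11 ratios were higher and 26 lower.

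With a pseudocount of 5 CPM the sign turned for the ratio changes of PDE7B-AS1 (0.85), STARD4-AS1 (0.29) and TMPO-AS1 (0.35), whose deprived levels are under that pseudocount.

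The numbers 1 and 2 are shared by the groups, and deviations of same-numbered libraries correlated at 0.0904 over 13357 genes. With only 1 difference per group, this value cannot show whether same-numbered libraries were prepared together. With the replicate block 43 antisense genes were higher and 40 lower, 84 partners higher and 47 lower, 34 ratios higher and 72 lower, and 0 transcripts lower. Of the changes of single named genes and ratios under all alternatives, 1270 kept direction and call, 62 lost the call, 11 gained it and 3 reversed. Members near the limit of 200 counts rest on few reads: JDP2-AS1 had 119 to 273 counts per library.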
